A study of Mus musculus with 28 samples.

Results

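Wide H3K27Ac domains are long, unbroken stretches of chromatin carrying acetyl groups on lysine 27 of histone H3, and 25 of them lost most of this mark during the maturation of a mouse bone cell line. A domain was counted as wide when its called region at day 3 spanned at least 15 kb on chromosomes 1 to 19, and as lost when regions called at day 35 covered under 40% of its bases. By this rule 25 of 1770 wide domains were lost, out of 65776 autosomal and 67163 day-3 H3K27Ac regions in all, and the remaining 1745 are called the other wide domains. The domains were chosen by their H3K27Ac coverage at the 2 days, so that coverage is given as a description and is not a result. The word lost also overstates the change: every one of the 25 domains kept at least 1 called piece at day 35, and 157.7 kb of their 550.2 kb, or 28.7%, were still called.

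The cells were IDG-SW3, a clonal line from the bones of mice that carry a temperature-sensitive T antigen driven by an interferon-inducible H-2Kb promoter and a GFP transgene driven by the Dmp1 promoter. They were expanded at 33 °C in medium with 50 U/mL interferon gamma, and matured from osteoblast-type to osteocyte-type cells at 37 °C, without interferon gamma, in medium with 50 µg/mL ascorbic acid and 4 mM β-glycerol phosphate. Chromatin immunoprecipitation with sequencing gave 1 library per day (35 and 3) for each of 9 histone marks in basal cells, so no difference between days has a replicate check and none carries a p-value. Binding of VDR, the receptor of vitamin D, and of RXR, the retinoid X receptor with which it pairs, was profiled at day 35 in 2 biological replicates after 3 h of 100 nM 1,25(OH)2D3, the active vitamin D hormone, and in 2 after vehicle. The labels call the cells osteocytic at both days. If days are counted from the move to 37 °C, both libraries follow the withdrawal of interferon gamma, and time since withdrawal, time since the temperature change and maturation cannot be told apart. A change of level in each cell also cannot be told apart from a change in how many cells carry the mark.

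H3K27Ac, H3K9Ac and H4K5Ac are acetylations found at active promoters and enhancers. H3K4me1 lies over enhancers, H3K4me2 over enhancers and promoters, and H3K4me3 over active promoters, while H3K36me3 and H4K20me1 lie over transcribed gene bodies and H3K9me3 over repressed chromatin. Acetylation stretched over many kilobases often marks highly transcribed genes or clusters of enhancers that serve the identity or current state of a cell.

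The values behind each statement are percentages of bases: the share of a domain, or of a gene with 5 kb on each side, that lies inside the called regions of a mark. A difference of over 10 percentage points between days is called lower or higher. The depth of sequencing is unknown here, and the histone lists held 9360 to 100123 regions. The autosomal length called for H3K27Ac was larger at day 35 (265.9 Mb) than at day 3 (222.4 Mb), and the ratio of day-35 to day-3 length was 1.05 for H3K9Ac, 1.13 for H4K5Ac, 0.998 for H3K4me1, 0.965 for H3K36me3 and 0.740 for H3K4me3. As a check of the labelled cell type, the osteoblast genes Col1a1 and Sp7 were fully covered by H3K27Ac at both days, Dmp1 was covered over 71.8% of its span at day 35 and 58.5% at day 3 (the transgene promoter can add reads there), and the mature osteocyte genes Sost and Fgf23 were covered over 6.29% and 4.92% at day 35 and 6.56% and 8.57% at day 3. Over the whole lists, H3K27Ac coverage of the 18 osteoblast genes ran from 3.88% (Msx2) to 100% at day 35 and from 0% (Bmp2) to 100% at day 3, and that of the 14 osteocyte genes from 4.92% (Fgf23) to 98.002% (Gja1) at day 35 and from 6.14% (Tnfsf11) to 66.0% (Fgfr1) at day 3. No gene of the osteoblast, osteocyte, adipocyte, chondrocyte, myogenic, haematopoietic, osteoclast, endothelial or neural marker lists had a start site inside a lost domain. Over all protein-coding genes only 0.0626% had one, so lists this short would seldom hold any and the absence says little about these genes.

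Promoters of 4 genes inside lost domains are shown, with known interferon (Gbp7 and Igtp) or cell division (Ect2 and Ckap2) roles. Bases around their start sites stayed mostly acetylated at day 35 while the gene bodies beside them lost most of their H3K27Ac coverage. Other genes of lost domains, such as Fam33a and Arl6ip6, had the same pattern and are not shown. Each promoter is the 250 bases before the gene's annotated 5′ end, written 5′ to 3′ on the gene's strand. The genome is mm9 (NCBIM37) with GENCODE M1 start sites. In the Gbp7 and Igtp promoters the capitals mark an interferon-stimulated response element (ISRE; GAAA and GAAA with 2 free bases between, or TTTC on the other strand) and matches to the gamma-activated sequence (GAS; TTCNNNGAA), which do not overlap each other. In the Ect2 and Ckap2 promoters they mark CCAAT boxes (CCAAT or ATTGG) and a cell-cycle homology-type hexamer (CHR, TTTGAA or TTCAAA). Which motifs were marked in which promoter was set by the known role of the gene. The Gbp7 promoter also held a CCAAT box and the Igtp promoter a CHR hexamer, both left in small letters. Promoters of Gbp4 (interferon) and Prr11 (cell division) were searched in the same way and are not shown. Gbp4 held 0 ISRE and 0 GAS matches, and Prr11 held 4 CCAAT boxes and 0 CHR hexamers. The 4 shown are therefore those in which both marked motifs were found.
Gbp7 promoter, chr3:142193052-142193301, plus strand: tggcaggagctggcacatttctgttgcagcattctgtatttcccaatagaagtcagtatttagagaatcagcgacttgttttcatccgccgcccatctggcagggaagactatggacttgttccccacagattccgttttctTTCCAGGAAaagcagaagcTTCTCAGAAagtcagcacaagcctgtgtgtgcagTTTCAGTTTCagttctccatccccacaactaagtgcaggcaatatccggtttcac
Igtp promoter, chr11:58012808-58013057, plus strand: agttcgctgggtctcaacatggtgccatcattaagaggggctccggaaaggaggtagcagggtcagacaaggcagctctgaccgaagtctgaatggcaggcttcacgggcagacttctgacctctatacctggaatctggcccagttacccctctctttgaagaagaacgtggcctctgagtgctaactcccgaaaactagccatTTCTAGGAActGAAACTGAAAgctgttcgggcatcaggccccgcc
Ect2 promoter, chr3:27052801-27053050, minus strand: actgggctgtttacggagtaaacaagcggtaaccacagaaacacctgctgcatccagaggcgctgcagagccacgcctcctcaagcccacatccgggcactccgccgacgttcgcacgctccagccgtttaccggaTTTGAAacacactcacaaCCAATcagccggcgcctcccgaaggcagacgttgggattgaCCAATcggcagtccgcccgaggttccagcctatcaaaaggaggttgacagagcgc
Ckap2 promoter, chr8:23296292-23296541, minus strand: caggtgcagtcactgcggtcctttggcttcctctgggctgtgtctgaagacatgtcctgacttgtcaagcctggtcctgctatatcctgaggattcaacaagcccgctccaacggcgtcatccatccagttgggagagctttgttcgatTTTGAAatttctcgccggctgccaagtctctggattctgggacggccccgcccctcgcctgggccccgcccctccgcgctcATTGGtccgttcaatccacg

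Across 22362 protein-coding promoters of this length, 3.37% held the ISRE letters, 6.83% the GAS letters, 35.0% a CCAAT box and 14.8% the CHR hexamer. Of the 12 promoters whose gene 5′ end lay in a lost domain, the ISRE was in 3 (Gbp7, Igtp and Khdrbs1), GAS in 2 (Gbp7 and Igtp), CCAAT in 7 and CHR in 4 (Ckap2, Ect2, Eri3 and Igtp). A further sequence is shown because RXR was called there in all 4 libraries at day 35, inside a piece of a lost domain that was still acetylated. It is a 200-base window around the mean peak centre, and the capitals mark the nuclear receptor hexamer searched (AGGTCA or GGGTCA, or on the other strand TGACCT or TGACCC).
RXR site of the domain near Hpgd, chr8:58867353-58867552, plus strand: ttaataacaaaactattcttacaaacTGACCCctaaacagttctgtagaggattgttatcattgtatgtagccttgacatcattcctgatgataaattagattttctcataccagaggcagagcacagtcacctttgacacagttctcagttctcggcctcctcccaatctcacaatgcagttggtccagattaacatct

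Among all 10333 windows of the same length around the RXR peaks of the first 1,25(OH)2D3 library, 45.5% held such a hexamer. These matches are descriptions of letters and not evidence of binding by a given factor.

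The lost domains were at the narrow and weaker end of the wide set at day 3. They spanned 15.0 to 57.4 kb with a median of 17.0 kb, against a median of 20.5 kb in the other wide domains, and their score rank among the 1770 wide domains ran from 209 to 1768 with a median of 1334 (rank 1 is the highest score, as the authors gave it). At day 35 they were covered over 8.48% to 39.5% of their bases, with a median of 32.0%, against a median of 98.5% in the other wide domains. The domains just inside the limit were Fam111a (38.6%), Fam33a with Prr11 (39.1%) and Arl6ip6 (39.5%), and domains just outside lay near Gm10320 (41.0%) and at Mrpl13 (41.2%). What remained was broken up: 7 domains kept 1 piece and the rest up to 5, and the longest piece of a domain measured 0.760 to 7.97 kb. Chromosome 4 held 6 of the 25 lost domains among its 127 wide domains, chromosome 8 held 4 among 161 and chromosome 11 held 3 among 110. A pair on chromosome 8 lay 28.5 kb apart on either side of the 5′ end of Nlrc5, and another pair on chromosome 16 lay 111.2 kb apart in the gene-poor stretch beside Adamts5.

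The lost domains were of 3 kinds by position. A transcription start site of a protein-coding gene lay in 12 of them, with 14 genes in all. Another 5 overlapped a protein-coding gene but held no start site, and 8 held no protein-coding gene. These are 48%, 20% and 32% of the lost domains beside 52.5%, 28.8% and 18.7% of the other wide domains. Over all protein-coding genes, 0.0626% had a start site in a lost domain and 5.47% in another wide domain. Of the gene lists, the interferon response list had 2 of 31 genes in a lost domain (Gbp7 and Igtp), and the cell cycle list had 1 of 26 (Top2a). The antigen presentation, cytokine, ERK and AP-1, YAP, mesenchymal factor and growth factor lists had 0. Nlrc5, named on the antigen presentation list, is typed as noncoding and was not counted. Gene groups below follow known roles of the genes found and were not tested as groups.

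**Figure D1:**
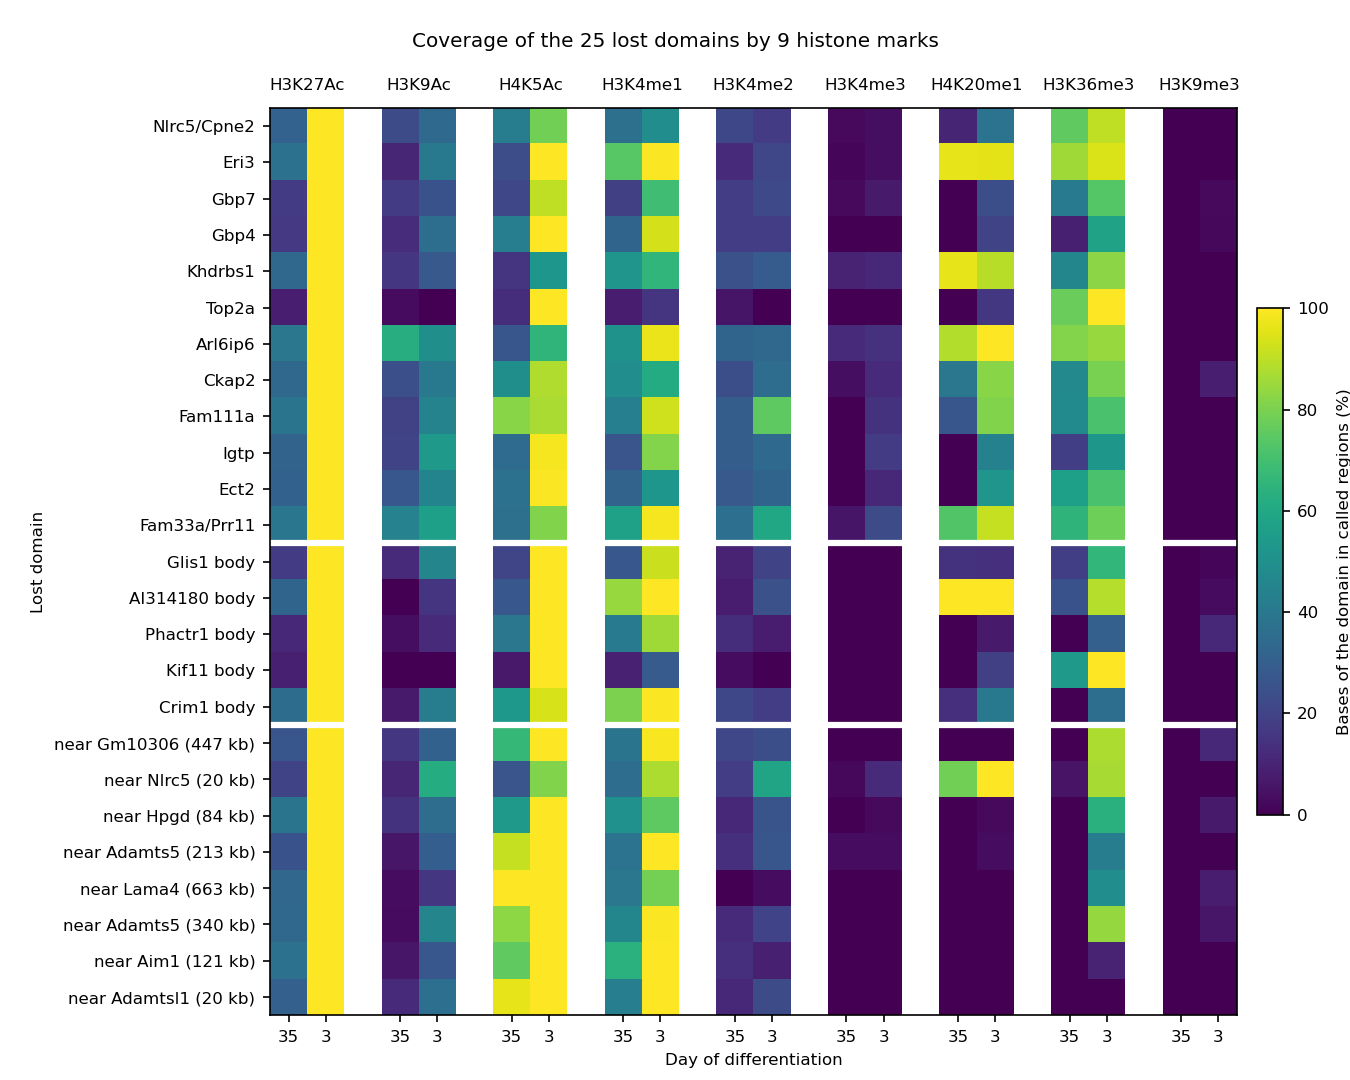
Percentage of the bases of each of the 25 lost domains that lay in called regions of 9 histone marks, day 35 left of day 3 for each mark. Rows are grouped into domains with a start site (top, 12), overlapping a gene without a start site (middle, 5) and without a protein-coding gene (bottom, 8). H4K5Ac stays high at day 35 mainly in the bottom group, and H3K36me3 there is at 0 in 7 of 8 domains.

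The other acetylations and H3K4me1, which the rule did not use, were lower in most of the 25 domains at day 35. H4K5Ac coverage was lower in 21 and higher in 0, beside 16.1% of all wide domains lower and 7.57% higher. Its median in the lost domains was 39.8% at day 35 and 100% at day 3, with a median change of -44.37 points, while the median change in the other wide domains was 0. H3K9Ac was lower in 20 and higher in 1, beside 36.6% of wide domains lower and 17.9% higher. Its median was 12.4% at day 35 and 36.2% at day 3 in the lost domains, and 50.9% and 55.3% in the other wide domains. H3K4me1 was lower in 24 and higher in 0, beside 35.1% of wide domains lower and 3.45% higher, with medians of 40.9% at day 35 and 92.0% at day 3. H3K9Ac and H4K5Ac were both lower in 16 lost domains, against 9.1% of wide domains, and H3K4me1 was lower too in all 16 of these, against 6.21% of wide domains. H3K9Ac and H4K5Ac shared the direction of the H3K27Ac change that defined the set, and the libraries of each day may share a culture, which was not tested.

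H3K36me3, a mark of transcribed bodies, was lower as well, but in a larger part of the background than the marks above. It was lower in 21 domains and higher in 0, where 57.3% of wide domains were lower and 1.07% higher, and its median was 18.5% at day 35 and 73.8% at day 3 in the lost domains against 32.6% and 65.4% in the other wide domains. H4K20me1 was lower in 13 and higher in 0, beside 21.1% and 8.14% of wide domains. It was at 0 in 14 lost domains at day 35 and 5 at day 3, and in 473 and 234 of the 1745 other wide domains. H3K4me2 was lower in 9 and higher in 0, whereas 10.6% of wide domains were lower and 28.6% were higher. H3K4me3 was lower in 4 and higher in 0, beside 6.67% and 0.847% of wide domains, and 12 of the 25 had no called H3K4me3 at day 3, as did 779 of the 1745 other wide domains. H3K9me3, the repressive mark, covered none of the 25 at day 35 and none of 1690 of the 1745 other wide domains. It was lower by over 10 points in 2 and higher in 0, beside 5.65% and 0.169% of wide domains.

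**Figure D2:**
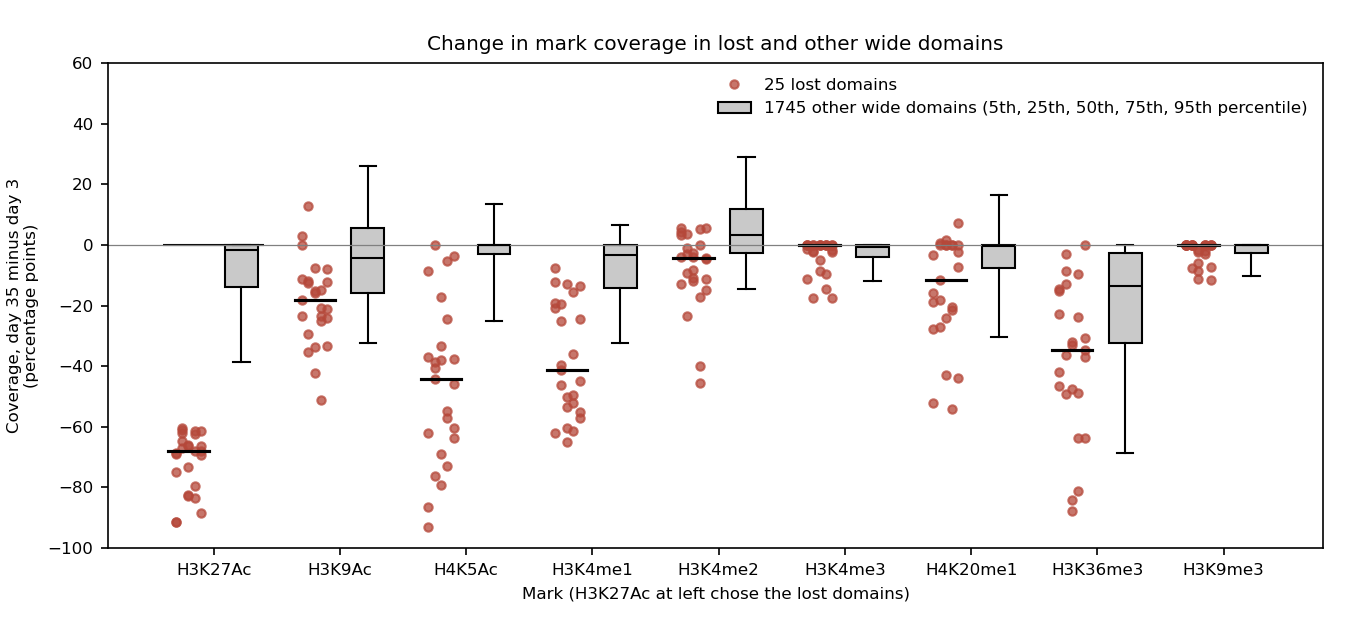
Change in coverage, day 35 minus day 3 in percentage points, for 9 marks. Points are the 25 lost domains with their median as a bar, and boxes show the 5th, 25th, 50th, 75th and 95th percentiles of the 1745 other wide domains; the H4K5Ac median is -44.37 points in lost domains and 0 in the others, and the H3K27Ac points at far left are the values that chose the set.

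Over the 392.5 kb that were called for H3K27Ac at day 3 and no longer at day 35, H4K5Ac covered 25.7% of the bases at day 35 and 88.3% at day 3. H3K4me1 covered 24.0% and 72.5% of the same bases, H3K36me3 40.8% and 77.5%, H3K9Ac 2.32% and 16.9%, and H4K20me1 27.1% and 38.6%, with the day-35 value first in each case. At least 1 of the 8 other marks was called over 75.8% of them at day 35 and over 100% at day 3. In the other wide domains, 3593 kb lost H3K27Ac by the same measure, and H4K5Ac still covered 68.5% of that length at day 35 and 90.1% at day 3. The immediate surroundings moved with the domains: in the 10 kb on each side, H3K27Ac was lower in 14 of the 25 and higher in 0, whereas 10.2% of wide domains had lower and 52.3% had higher flanks. H4K5Ac in these flanks was lower in 21 and higher in 0, beside 26.2% and 27.7% of wide domains. Flanking H3K4me1 was lower in 20 and higher in 0 (35.6% and 12.8% of wide domains), flanking H3K36me3 lower in 19 and higher in 0 (32% and 6.27%), and flanking H3K9Ac lower in 7 and higher in 2 (7.29% and 12.3%).

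Interferon-inducible genes lay in or beside 5 of the domains, grouped by known role after they were found. How many of all wide domains hold such genes was not counted. Of the 31 genes of the interferon response list, 2 had a start in a lost domain and 2 in another wide domain. Over all protein-coding genes the shares were 0.0626% and 5.47%. The domain with the most bases lost was chr8:97004654-97062026, which ran for 57.4 kb over most of Nlrc5 and into the 5′ end of Cpne2. Nlrc5 encodes the transactivator of MHC class I genes and is typed as a long noncoding RNA in the GENCODE version used, while Cpne2 encodes a copine, a calcium-dependent membrane-binding protein. H3K27Ac was left here in 5 pieces holding 31.5% of the bases at day 35, against 100% at day 3, while H4K5Ac covered 41.9% and 78.8%, and H3K36me3 still covered 75.5% at day 35, against 90.5% at day 3. The start site of Cpne2 remained fully covered by H3K27Ac, H3K9Ac and H4K5Ac at day 35, as at day 3. The annotated 5′ end of Nlrc5, outside the domain, had little acetylation at either day. Within 1 kb of it H3K27Ac covered 0% at day 35 and 9.80% at day 3, and H4K5Ac 0% and 14.7%. H3K9Ac and H3K4me3 were not called there at either day. Across the Nlrc5 gene with 5 kb on each side, H3K27Ac covered 22.7% at day 35 and 84.2% at day 3, and H3K9Ac 16.1% and 23.9%. A second lost domain, chr8:96954702-96976171, ended 20.5 kb before the 5′ end of Nlrc5 and contained the noncoding gene 9330175E14Rik. It showed the largest H3K9Ac difference of the 25, with 10.9% covered at day 35 and 62.0% at day 3; H3K4me2 covered 18.2% and 58.2%, and H3K36me3 5.46% and 86.8%.

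Guanylate-binding proteins are interferon-induced GTPases that act against intracellular pathogens, and Gbp7 and Gbp4 each lay in a lost domain, in separate gene clusters on chromosomes 3 and 5. The Gbp7 domain, chr3:142189129-142215915, contained the whole 19.7 kb gene. A single acetylated piece of 4.68 kb remained at day 35, over the start site whose promoter carries the ISRE and GAS letters shown above. Within 1 kb of that start H3K27Ac, H3K9Ac and H4K5Ac covered 100% at both days, while H3K4me3 covered 32.4% at day 35 and 82.2% at day 3. Over the gene with its flanks H4K5Ac covered 19.2% at day 35 and 83.5% at day 3. The Gbp4 domain, chr5:105551850-105576311, also kept a single piece, of 4.02 kb, and its H3K9Ac covered 12.8% at day 35 and 36.2% at day 3. H3K4me3 was not called within 1 kb of the Gbp4 start at either day, and its promoter held neither the ISRE nor the GAS letters.

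Neighbouring Gbp genes outside the lost domains differed in how much acetylation they had to begin with. Gbp3 and Gbp2, in the chromosome 3 cluster, were covered by H3K27Ac over 13.03% and 18.5% of their spans at day 35 and over 57.7% and 65.6% at day 3. Gbp8 and Gbp10, in the chromosome 5 cluster, had little H3K27Ac at either day, with 8.29% and 1.44% at day 35 and 8.64% and 2.74% at day 3. Gbp11 was covered over 16.0% at day 35 and 15.4% at day 3. The rest lay between: Gbp5 and Gbp1 on chromosome 3 had 19.9% and 16.8% at day 35 and 32.7% and 31.9% at day 3. On chromosome 5, Gbp9 and Gbp6 had 5.84% and 8.47% at day 35 and 15.1% and 10.5% at day 3. The Igtp domain, chr11:58004343-58019840, held the gene of an immunity-related GTPase. Around the Igtp start, H3K27Ac covered 80.0% at day 35 and 100% at day 3, and H3K4me3 covered 0% and 72.4%. The neighbouring family member Irgm2 was covered by H3K27Ac over 44.9% at day 35 and 71.0% at day 3.

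Over the interferon response list as a whole, H4K5Ac coverage of the genes was lower at day 35 in 20 of 31 and higher in 0, and H3K9Ac was lower in 15 and higher in 0. The same calls applied to 6.68% and 3.65% of all protein-coding genes for lower, and 13.4% and 7.1% for higher. The median change of the list was -12.73 points for H4K5Ac and -9.43 points for H3K9Ac, against a median of 0 for each over all genes. The antigen presentation list had 9 of 17 genes lower for each of the 2 marks and 1 higher for each, although none of these 17 had a start site in a lost domain. That list named 18 genes. The one left out was Nlrc5, which is typed as noncoding and had 85.3% of its length in a lost domain. Both lists were drawn up with earlier results of these data known, so their direction is not independent evidence.

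Genes of cell division occupied another 5 of the domains, also grouped by known role after they were found. How many of all wide domains hold such genes was not counted. Of the 26 genes of the cell cycle list, 1 had a start in a lost domain and 4 in another wide domain. Over all protein-coding genes the shares were 0.0626% and 5.47%. Top2a, encoding the topoisomerase that untangles chromosomes before mitosis, had its 3′ part in chr11:98852314-98869273, and the only start site inside was that of a short internal transcript. This was the least covered domain at day 35, with 8.48% of bases called for H3K27Ac in a single piece of 1.44 kb. It was also among the weakest at day 3, with a score rank of 1765 among the 1770 wide domains. Its H4K5Ac covered 13.3% at day 35 and 99.8% at day 3. H3K36me3 covered 77.2% at day 35 and 100% at day 3, and H3K4me1 covered 7.45% and 15.1%. The gene's own 5′ end, outside the domain, kept H3K27Ac over 93.2% of the bases within 1 kb at day 35 and 100% at day 3.

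The domain inside Kif11, which encodes the kinesin that separates spindle poles, had similar values and was similarly weak at day 3, with a score rank of 1768. At chr19:37470784-37486596 H3K27Ac covered 8.61% of bases at day 35, H4K5Ac covered 6.95% at day 35 and 100% at day 3, and H3K36me3 covered 53.6% and 100%. The Top2a and Kif11 domains were the only 2 of the 25 with no called H3K9Ac at day 3, a state found in 9 of the 1770 wide domains, 7 of which were covered by H3K36me3 over at least 99% of their bases. At the Kif11 start, outside the domain, H3K27Ac, H3K9Ac and H4K5Ac covered 100% at both days.

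Ect2, encoding the exchange factor that activates RhoA for cytokinesis, Ckap2, encoding a spindle-associated protein, and Fam33a (now Ska2), encoding a kinetochore protein, had their 5′ ends inside lost domains. At all 3 starts H3K27Ac, H3K9Ac and H4K5Ac covered 100% of the bases within 1 kb at both days, so the start sites lay within the retained pieces. H3K4me3 there covered 0% at day 35 and 61.2% at day 3 at Ect2, 31.7% and 67.8% at Ckap2, and 47.0% and 100% at Fam33a. Over the Ect2 gene with its flanks H3K27Ac covered 10.2% at day 35 and 52.8% at day 3, and H4K20me1 0% and 27.99%. The Fam33a domain also held the divergent start of Prr11, a gene linked to cell cycle progression, where H3K4me3 covered 26.1% at day 35 and 100% at day 3. Over the cell cycle list, which of these genes held only Top2a, H4K5Ac was lower in 10 of 26 genes and higher in 3, and H3K9Ac was lower in 6 and higher in 2. Over all protein-coding genes 6.68% were lower and 13.4% higher for H4K5Ac, and 3.65% lower and 7.1% higher for H3K9Ac.

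**Figure D3:**
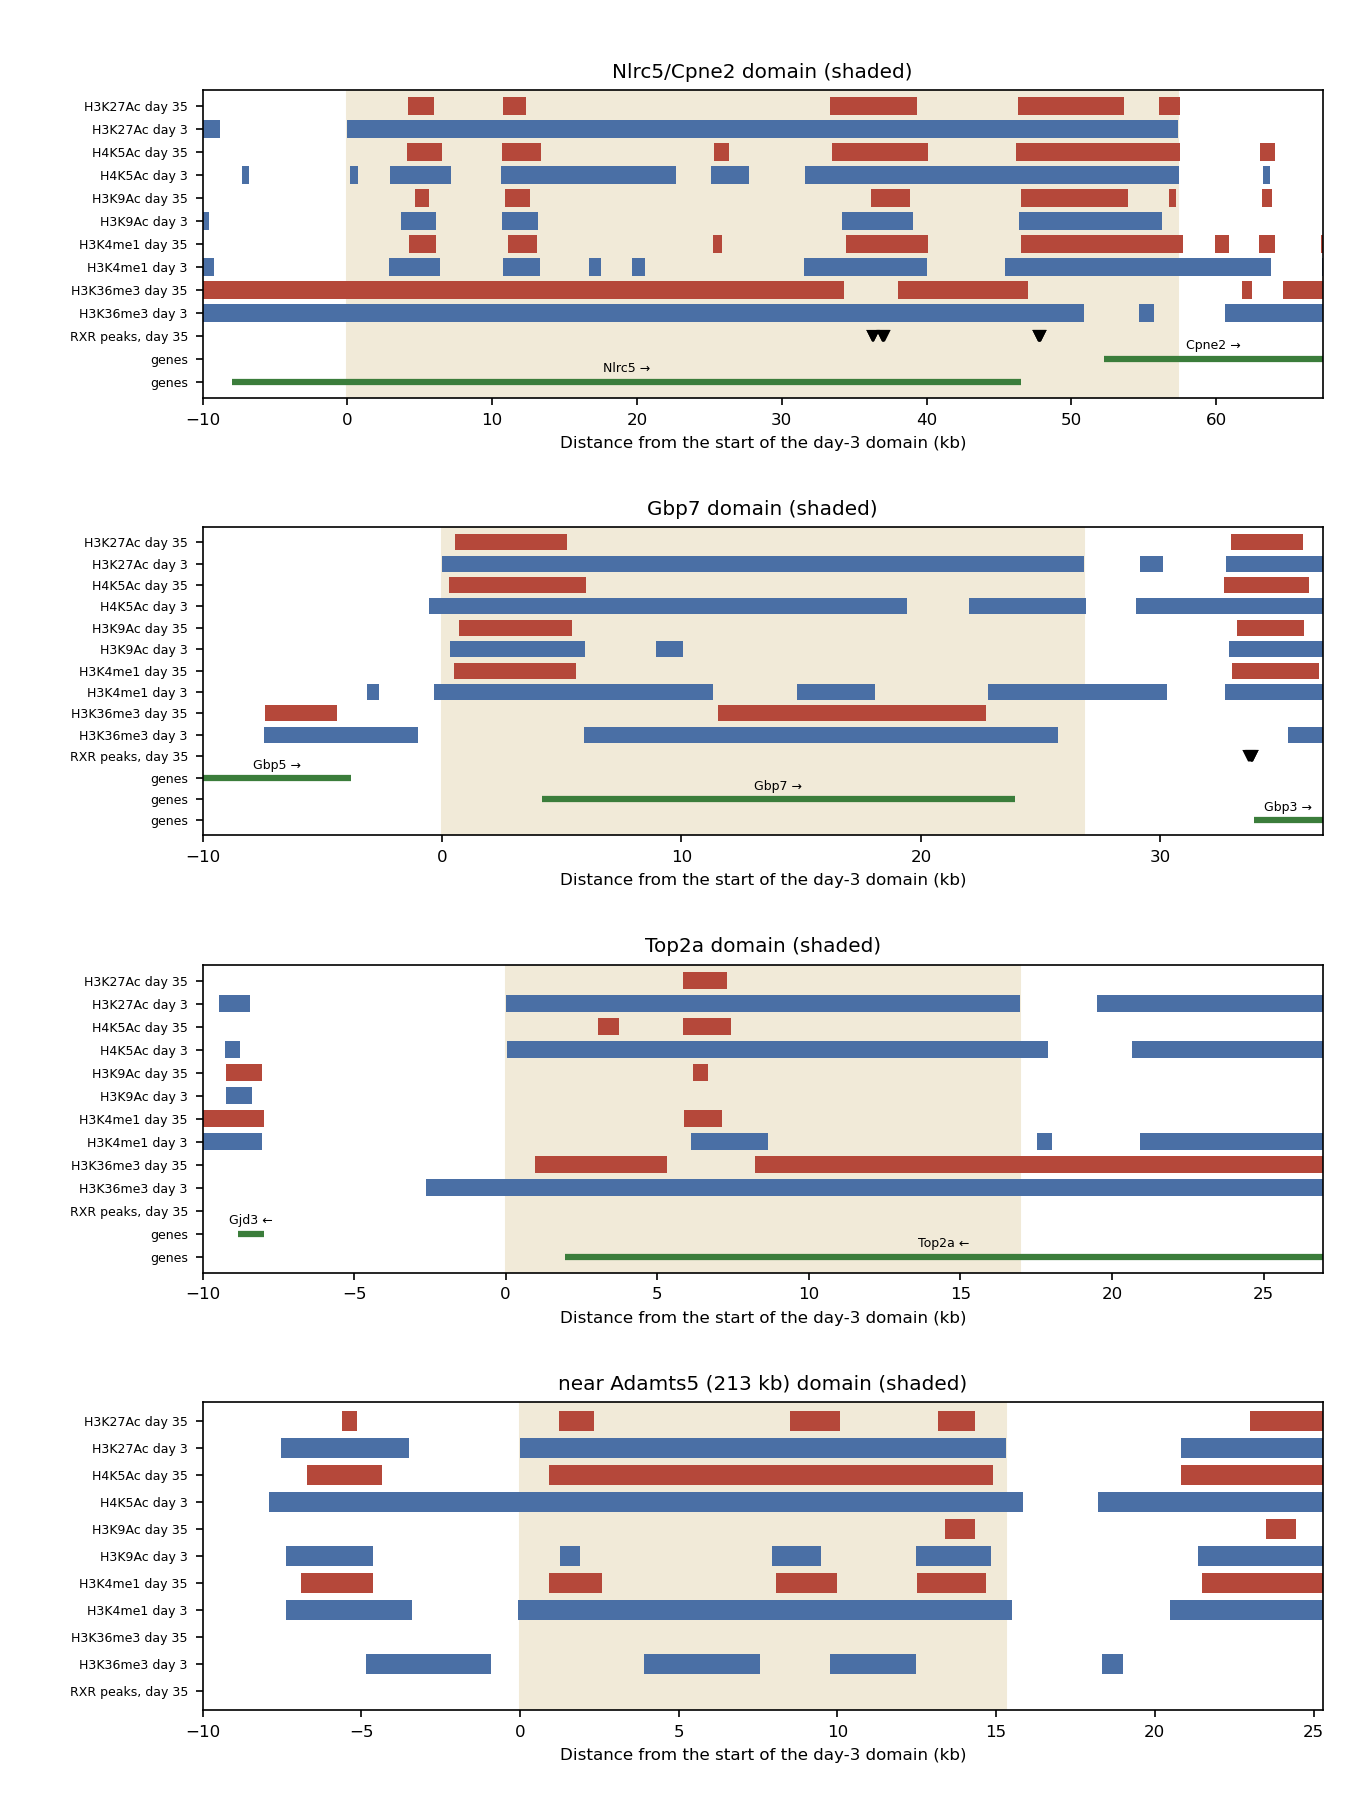
Called regions at day 35 (red) and day 3 (blue) for 5 marks over 4 lost domains (shaded) with 10 kb on each side, RXR peaks of all 4 libraries at day 35 (triangles) and genes (green, arrows give the strand), against distance from the domain start in kb. The Gbp7 domain is reduced to 1 piece over the gene's start, the Top2a domain to a piece of 1.44 kb inside the gene, and the domain 213 kb from Adamts5 keeps H4K5Ac nearly throughout.

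The other domains with a start site held genes of varied roles. Eri3, of an exoribonuclease family, lay at the start of chr4:117221697-117264084, the second largest by bases lost, where H4K5Ac covered 23.8% at day 35 and 100% at day 3 while H4K20me1 covered 96.4% and 95.8%. The domain of Khdrbs1, encoding the RNA-binding protein Sam68, had H4K5Ac over 15.0% at day 35 and 52.7% at day 3, and H4K20me1 over 96.3% and 89.2%. The domain at Arl6ip6 was the only one of the 25 with higher H3K9Ac, at 62.5% of bases at day 35 and 49.7% at day 3, although its H4K5Ac was lower, at 26.7% and 65.5%. Within 1 kb of the Arl6ip6 start H3K27Ac, H3K9Ac, H4K5Ac and H3K4me3 covered 100% of bases at both days.

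Fam111a encodes a protease that works at replication forks, and its domain lay at an internal start of the gene. It showed the largest H3K4me2 difference, at 29.7% of bases at day 35 and 75.3% at day 3. H3K4me3 covered 0% at day 35 and 14.6% at day 3, but H4K5Ac was little different, at 82.1% and 87.4%.

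Start sites kept much more of their acetylation than the rest of these 12 domains. Bases within 1 kb of a start were covered by H3K27Ac over 69.8% at day 35, and bases farther away over 25.6%, with 100% for each at day 3 by the rule. H4K5Ac showed the same arrangement without having been used in the choice, with 74.2% near starts at day 35 and 100% at day 3, and 29.7% farther away at day 35 and 84.2% at day 3. H3K9Ac covered 68.6% near starts at day 35 and 78.0% at day 3, and 16.6% and 31.9% farther away. H3K4me3, whose list was shorter overall at day 35, covered 26.8% near starts at day 35 and 58.4% at day 3, and 0.333% and 2.26% farther away. Near the starts of the other wide domains H3K4me3 covered 36.7% at day 35 and 52.0% at day 3.

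**Figure D4:**
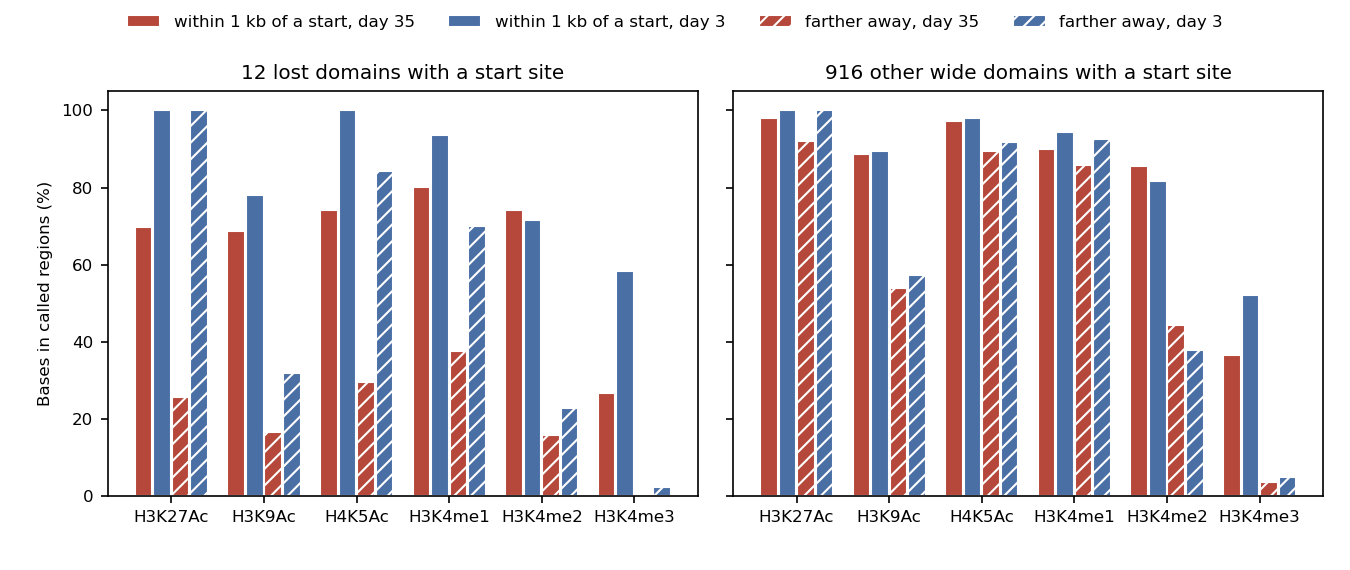
Percentage of bases in called regions within 1 kb of a start site (plain bars) and farther away (hatched bars), day 35 in red left of day 3 in blue, summed over the 12 lost domains with a start site (left) and the 916 other wide domains with one (right). In lost domains H4K5Ac at day 35 covers 74.2% near starts and 29.7% farther away, whereas in the other wide domains it covers 97.4% and 89.5%.

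The 5 domains that overlapped a gene but held no coding start included Kif11, described above, and 4 more. They were not all far from a start: the AI314180 domain lay 0.439 kb from a coding start of that gene. Glis1, encoding a Krüppel-like zinc finger transcription factor, lost acetylation at and beyond its 3′ end at chr4:107287806-107317703. There H3K9Ac covered 11.8% at day 35 and 45.6% at day 3, H4K5Ac 20.9% and 100%, and H3K4me1 27.1% and 92.0%. The Glis1 start, far outside this domain, remained covered by H3K27Ac over 96.4% of its bases at day 35, against 100% at day 3, while H3K4me3 there covered 0% and 43.8%. AI314180 (now Ecpas) encodes a proteasome-associated scaffold protein, and the domain within it kept H4K20me1 over 100% of bases at both days and H3K4me1 over 84.4% at day 35 and 100% at day 3, although H3K9Ac covered 0% at day 35 and 14.9% at day 3.

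Crim1 encodes a transmembrane protein that binds bone morphogenetic proteins, and its intragenic domain had the third largest H3K9Ac difference, with 7.07% of bases covered at day 35 and 42.2% at day 3. Phactr1 encodes a regulator of protein phosphatase 1 and actin. Its domain kept the shortest longest piece of the 25, 0.760 kb, and its H4K5Ac covered 39.8% at day 35 and 100% at day 3. The day-3 score of that domain ranked 1731 among the 1770 wide domains.

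Of the 8 domains with no protein-coding gene, the distance to the nearest coding start ran from 20.2 kb (Adamtsl1) to 662.7 kb (Lama4). All 8 had lower H3K9Ac and lower H3K4me1 at day 35, where 51.5% and 51.2% of the 326 other wide domains without a coding gene were lower. H3K9Ac covered a median of 8.55% of their bases at day 35 and 33.5% at day 3, and H3K4me1 41.3% and 99.1%. H4K5Ac behaved differently here, with a median of 79.2% at day 35 and 100% at day 3, against 35.8% and 89.2% in the 12 domains with a start site. Over the bases that lost H3K27Ac, H4K5Ac at day 35 covered 58.7% in these 8 domains. It covered 13.6% in those with a start site and 14.7% in those overlapping a gene without a start site. The domain near Lama4 was the extreme, with H4K5Ac over 100% of its bases at both days. In the pair beside Adamts5, an aggrecan-cleaving protease gene, H4K5Ac covered 91.3% and 82.9% at day 35 and 100% of each at day 3. The one at 340 kb from Adamts5 had the second largest H3K9Ac difference of the 25, at 3.12% of bases at day 35 and 45.5% at day 3.

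H3K36me3 was called over 7 of the 8 gene-less domains at day 3 and over 1 at day 35. Its median over the 8 was 0% at day 35 and 56.3% at day 3, while in the 326 other wide domains without a coding gene the medians were 0% and 11.8%, and 290 of these had none at day 35 and 73 none at day 3. The domain 447 kb from Gm10306 had H3K36me3 over 0% of its bases at day 35 and 87.7% at day 3, and the domain at 340 kb from Adamts5 over 0% and 84.2%. The domain near Adamtsl1 had none at either day. H4K20me1 was at 0% in 7 of the 8 at day 35 and in 5 at day 3, and in 296 and 164 of the 326 others. It covered 78.6% at day 35 and 100% at day 3 of the domain before Nlrc5.

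Few VDR peaks were called in the lost domains at day 35. The 2 libraries after 1,25(OH)2D3 had 1 and 0 VDR peaks in them and the 2 after vehicle had 0 and 0, while the other wide domains held 193 and 158 peaks after 1,25(OH)2D3 and 21 and 24 after vehicle. The arms overlapped within the lost domains. The difference in mean log2(peaks + 1) was 0.500 (0.500 ± 0.707 after 1,25(OH)2D3 and 0 ± 0 after vehicle, SD, n = 2 each; exact two-sided permutation test, p = 1), and with 2 libraries an arm this test cannot give p below 0.333. After 1,25(OH)2D3 the library with 1 peak had a density of 1.82 per Mb in the 0.550 Mb of lost domains (95% Poisson interval up to 10.1), against 4.42 per Mb in the other wide domains. The library with 0 peaks had an interval up to 6.71 per Mb, against 3.61 per Mb in the other wide domains, so a shortage of VDR peaks was not detectable in either. The single peak lay in the Fam111a domain, in bases called for H3K27Ac at both days. Such limits cover counting error only.

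RXR peaks in the lost domains numbered 12 and 11 after 1,25(OH)2D3 and 11 and 7 after vehicle. These are 21.8 and 19.99 per Mb after the hormone and 19.99 and 12.7 per Mb after vehicle, against 37.4, 29.7, 26.5 and 17.3 per Mb in the other wide domains in the same order of libraries. Per Mb of whole domain the lost domains had the lower density in all 4 libraries, by a ratio of 0.583 to 0.755, but in each library the 95% Poisson interval of the lost domains included the value of the other wide domains. Per Mb still called for H3K27Ac at day 35 the direction was the opposite: the lost domains had 76.1 and 69.8 peaks per Mb after the hormone and 69.8 and 44.4 after vehicle, against 40.7, 32.3, 28.9 and 18.9 in the other wide domains in the same order. There the intervals of the lost domains began at 39.3, 34.8, 34.8 and 17.8 per Mb. The rule that chose the lost domains limits the length still called, which raises this density. The second comparison is therefore a description only and not a test. The arms overlapped, and the difference in mean log2(peaks + 1) was 0.35 (3.64 ± 0.08 after 1,25(OH)2D3 and 3.29 ± 0.41 after vehicle, SD, n = 2 each; exact two-sided permutation test, p = 0.667).

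**Figure D5:**
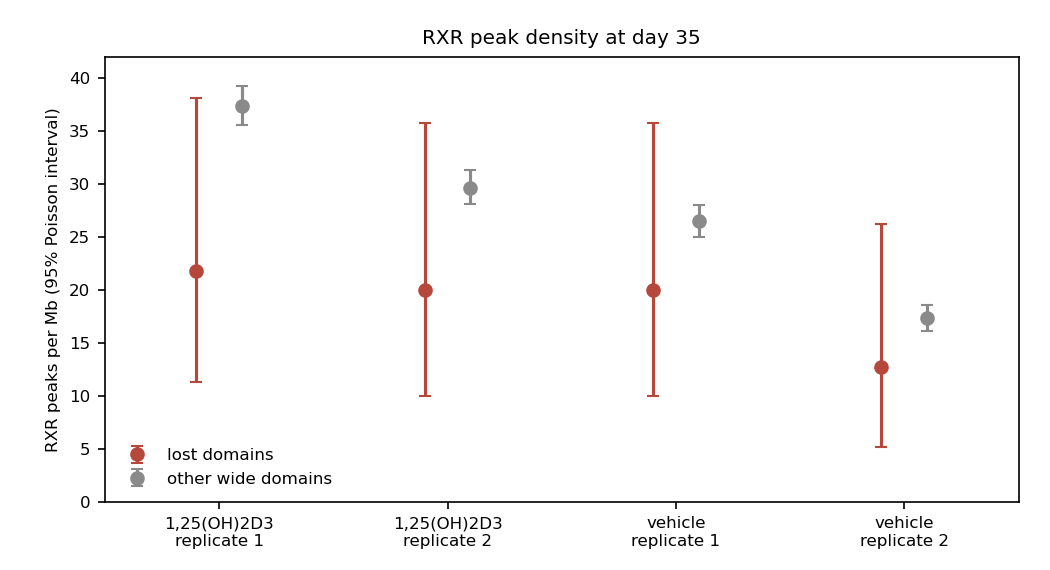
RXR peaks per Mb in the 25 lost domains (red) and the 1745 other wide domains (grey) in each of the 4 day-35 libraries, with 95% Poisson intervals that cover counting error only. Per Mb of whole domain, as plotted, the lost domains lie below in all 4 libraries, with intervals that include the value of the other wide domains. Per Mb still called for H3K27Ac at day 35, not plotted, they lie above in all 4 (44.4 to 76.1 against 18.9 to 40.7). The rule that chose the lost domains limits that length, so the second comparison is a description only.

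All 41 RXR peak calls in the lost domains lay in bases still called for H3K27Ac at day 35, although such bases made up 28.7% of the domains. In the other wide domains nearly every RXR peak did so too (99.9% to 100% in the 4 libraries), where 91.8% of the bases were still called. The 41 calls merged into 14 sites in 10 domains, of which 5 sites were called in all 4 libraries and 6 lay within 1 kb of a coding start. The 5 were at the starts of Ect2, Fam33a with Prr11, and Eri3, in the Nlrc5 and Cpne2 domain, and in the domain near Hpgd, a prostaglandin-degrading enzyme gene, 94.1 kb from a start and with its sequence shown above. The remaining domains had no RXR peak in any library. They were the Gbp7, Gbp4, Igtp, Top2a, Kif11, Ckap2, AI314180 and Phactr1 domains and those without a protein-coding gene other than the one near Hpgd. Beyond the end of the Gbp7 domain, an RXR peak was called in all 4 libraries at the start of Gbp3.

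The base composition of the lost domains was lower in G and C, with a median of 41.9% against 45.0% in the other wide domains, and their median CpG density was 9.27 per kb against 12.2 per kb. Within the lost domains, the bases still called at day 35 had a median G and C content of 43.8% and the bases no longer called 40.8%, with the retained part higher in 21 of 25. Sequencing recovery varies with base composition, and its part in the day difference was not tested.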

How the data were processed

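Region lists of 26 of the 28 samples were used (2 inputs had no list used here). Each deposited list holds the position and a score of every region, called per sample; the score is the authors' own, its scaling is not stated, and it served only to rank or filter within a list. Per the submitters' processing notes the tools were Bowtie and HOMER and the build mm9; no version, threshold or use of the inputs is stated there. The labels name the antibody target H4K5Ac in titles and H3K5Ac in the protocol; the title was followed. Chromosome ends matched NCBIM37 (0 of 21 chromosomes had a region beyond its end), and genes came from GENCODE M1 (22367 protein-coding).

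Regions of a list were merged where they touched, and the percent of bases covered was computed per domain (Python 3.11.15, numpy 2.4.6, scipy 1.17.1), after a check on simulated data. Differences past 10 percentage points were counted, with no test, since each mark and day had 1 library. VDR and RXR peaks were assigned by their centre and arms compared by an exact permutation test of log2(peaks + 1). Named genes were those with a start site in a domain (or the nearest), listed genes there, and the domains with the largest H3K9Ac difference. The domains, gene lists and tests were chosen with earlier results of these data known. Alternatives varied the width and coverage limits, list sizes, the 10-point limit, merging, chromosomes and replicates. A few items at the domains are not reported here.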

Additional observations from a re-analysis of the deposited data

How the results depend on the processing

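The number of lost domains depended on its limits: 25 became 131 with a width of at least 10 kb, 11 with 20 kb, 9 with under 30% coverage, 54 with under 50%, and 48 against the higher-scoring 50% of the day-35 list; it stayed 25 with regions closer than 1 kb merged. All 25 overlapped a domain in the 131, 54, 48 and merged sets.

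Shares of lost domains with lower coverage moved as follows. For H3K9Ac, 80.0% became 55.6% in the 9 domains under 30% coverage, 56.0% with the higher-scoring 50% of each list and 48.0% past 20 points. H4K5Ac went to 100% at 20 kb, H3K4me1 to 100% at 20 kb and 72.0% past 20 points, H3K4me2 (36%) to 12% past 20 points and 20.6% at 10 kb, and H3K4me3 (16%) to 0% under 30% coverage, at 20 kb and past 20 points and to 9.26% under 50% coverage. H4K20me1 (52%) went to 33.3% under 50% coverage and 33.6% at 10 kb, and H3K36me3 to 100% under 30% coverage and 52.7% at 10 kb. H3K9me3 (8%, 2 domains) went to 22.2% under 30% coverage, 4.58% at 10 kb, 4% with the higher-scoring 50%, 0% past 20 points and 5.26% without chromosome 4. Leaving out chromosome 4 and limiting lists to equal covered length were added after seeing the data. Median changes moved too: H4K5Ac from -44.37 to -29.00 points under 50% coverage, and H3K36me3 from -34.60 to -22.92 under 50% coverage and -12.34 at 10 kb. That of H4K20me1 (-11.64) was -0.77 under 50% coverage, 0 at 10 kb and with the higher-scoring 50%, -2.41 at 20 kb and -18.97 without chromosome 4, and that of H3K4me2 (-4.35) was -2.70 under 30% coverage, -1.59 at 10 kb and -8.84 with equal covered length. The medians of H3K4me3 and H3K9me3, 0, went no lower than -1.73 and -1.67. Other shares and medians for these marks moved by no more than 1.5 times. Counting starts within 10 kb gave 5 listed genes (Gbp3, Gbp7, Igtp, Irgm2 and Top2a) in place of 3.

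With lists limited to equal numbers the RXR difference reversed to -0.63 (exact permutation test, p = 0.333), and the VDR difference was 0 with equal numbers and with the higher-scoring 50%; the cause was not tested. Leaving out a replicate gave 0 to 1 for VDR and 0.12 to 0.58 for RXR. Replicate numbers were paired as a block with no change in the differences, 0.500 for VDR (exact sign-flip test, p = 1) and 0.35 for RXR (exact sign-flip test, p = 0.500). Deviations of equal-numbered libraries correlated at 0.05 for VDR and 0.11 for RXR over 1770 domains. With 2 pairs, and with no peak in most domains for VDR, this cannot show whether equal-numbered libraries share a culture or batch. One library per mark and day, unstated depth and score scaling, and 1 cell line limit every day difference.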

Other observations

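Outside the lost domains, the osteoblast list differed between days mainly toward more acetylation; the single genes named here were chosen after their values were seen. Of the 18 osteoblast genes, H4K5Ac coverage was higher at day 35 in 10 and lower in 1, and H3K9Ac was higher in 8 and lower in 1, with median changes of 11.4 and 5.59 points, while 13.4% and 7.10% of all protein-coding genes were higher. Ibsp, encoding bone sialoprotein, had H4K5Ac over 95.8% of its span at day 35 and 24.2% at day 3, and Pth1r, the parathyroid hormone receptor gene, 100% and 58.6%. Msx2, a homeobox gene, was the one with lower coverage of both marks, with H3K9Ac at 8.60% at day 35 and 44.9% at day 3. Ciita, the transactivator of MHC class II genes, was covered by H3K27Ac over 3.67% at day 35 and 50.1% at day 3, beside the Nlrc5 values given above for class I.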
